A study of Mus musculus with 8 samples.

Results

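The difference between 2 lines in how they respond to stimulation of the B cell receptor was measured gene by gene. Both lines were stable derivatives of WEHI-231, a mouse B lymphoma line of immature B cell character. One carries the name of the microRNA miR-148a and the other is its control. RNA was taken from untreated cells and from cells given anti-IgM, an antibody to the IgM of the receptor, at 2 ug/ml for 14 h. The 4 groups were therefore WEHI-control without stimulation, WEHI-control with anti-IgM, WEHI-miR-148a without stimulation and WEHI-miR-148a with anti-IgM. All were grown in DMEM with serum, glutamine, antibiotics and mercaptoethanol. Each group had 2 libraries, with replicate 1 of all groups from 1 run and replicate 2 from another. The construct behind either line, the level of the microRNA and whether a line is 1 clone were not stated in the sources used here. A gene's response is its log2 fold change from unstimulated to anti-IgM, and its response difference is the response of the miR-148a line minus that of the control line. The response difference is the interaction term of a model with the run as a block. Levels are in CPM, library-scaled counts. It was defined for all 24054 named genes of the count table, of which 11291 passed the filter on low counts and were tested, and 11 passed the test.

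Crosslinking of the B cell receptor activates kinases such as SYK and BTK and raises calcium, NF-kB and MAP kinase signalling. In mature B cells this promotes growth, whereas in immature B cells and in WEHI-231 it leads to loss of MYC, arrest and apoptosis, for which the pro-apoptotic protein Bim is important. A microRNA pairs its seed, a short stretch near its 5′ end, with sites in the 3′ UTRs of transcripts, which lowers their stability and translation. miR-148a is known in B cells for regulating tolerance, survival and plasma cell differentiation.

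The mature microRNA is shown because its seed defines the sites by which the genes below were grouped. It shares the 7-base seed at positions 2 to 8, in capitals, with 2 relatives, so a site cannot tell the 3 apart (RefSeq sequences, GRCm38.p6).
mmu-miR-148a-3p: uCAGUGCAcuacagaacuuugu
mmu-miR-148b-3p: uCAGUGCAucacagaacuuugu
mmu-miR-152-3p: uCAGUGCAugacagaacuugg

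A site was counted where the letters TGCACTG (a 7mer-m8 site) or TGCACTGA (an 8mer site) stood on the sense strand of the longest annotated 3′ UTR (GENCODE M21, GRCm38). Of the genes called for a response difference Pdgfb holds such a site, and of those named next Bcl2l11 and Zfp710 do. Their sites and that of Gadd45a, another gene known to have been followed as a target in such cells, are shown with the match in capitals and 11 bases on either side.
Bcl2l11 site 1, chr2:128158467-128158495, + strand: ggacagcgctcTGCACTGtgtcgatgtga
Bcl2l11 site 2, chr2:128159226-128159254, + strand: gtgcgcttcacTGCACTGcggtggctgtg
Bcl2l11 site 3, chr2:128162398-128162427, + strand: cctttacgtttTGCACTGAtgaattttgac
Gadd45a site, chr6:67035609-67035638, - strand: ctgaaccaaatTGCACTGAagttttgaaat
Pdgfb site, chr15:79996441-79996469, - strand: attgcacatgaTGCACTGcgtgtggagac
Zfp710 site 1, chr7:80090917-80090945, + strand: atctgaaccccTGCACTGgccgacactgc
Zfp710 site 2, chr7:80093166-80093194, + strand: gatttcgggcaTGCACTGccatccctgac
The third Bcl2l11 site and the Gadd45a site are 8mers, and the other 5 are 7mer-m8 sites. A match is a description of the letters and was not tested as a binding site.

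The iron uptake receptor Tfrc, the bicarbonate transporter Slc4a7, the meiotic ubiquitin ligase Ccnb1ip1 and the growth factor Pdgfb had lower responses in the miR-148a line, with response differences from -1.495 to -0.82 on the log2 scale. The BTB-kelch protein Klhl6, the ARF exchange factor Cyth4, the actin-binding Lsp1, the inhibitory receptor Ceacam1, the phosphodiesterase Cnp and the creatine kinase Ckm had higher responses, by 0.63 to 0.89. With 1 further transcript, 1700088E04Rik, these were the 11 genes called of 11291 tested, 0.0974% (7 higher, 0.062%, and 4 lower, 0.0354%; edgeR quasi-likelihood F test, Benjamini-Hochberg adjusted p under 0.05). An unadjusted p under 0.05 was reached by 1315 genes, 11.6% (628 higher, 5.56%, and 687 lower, 6.08%). An adjusted p under 0.10 was reached by 69, of which 46 were higher and 23 lower. By the same model 3929 genes responded in the control line, 34.8% (1989 rose, 17.6%, and 1940 fell, 17.2%), and 5205 in the miR-148a line, 46.1% (2569 rose, 22.8%, and 2636 fell, 23.3%).

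The 11 calls depended on the model and on single libraries. Without the replicate block no gene passed (0 of 11291 by edgeR, with 484 at an unadjusted p under 0.05). With the block DESeq2 called 42 genes, 9 of the 11 among them (it gave no adjusted p for Pdgfb and 1700088E04Rik), and limma-voom 13, which included all 11. Leaving out replicate 1 of the unstimulated control group left 2 calls, and leaving out its replicate 2 gave 25. For the unstimulated miR-148a group these counts were 1 and 0, for the anti-IgM control group 53 and 1, and for the anti-IgM miR-148a group 374 and 30. Tfrc was the 1 gene of the 11 still called when replicate 1 of either unstimulated group or replicate 2 of the anti-IgM control group was left out. Without replicate 2 of the unstimulated control group Ceacam1, Ckm, Pdgfb and 1700088E04Rik lost their calls (adjusted p 0.052 to 0.0705), and all 11 kept them without either anti-IgM miR-148a library or the first anti-IgM control library. Over the alternatives that gave a value and its p, the size ran from -1.67 to -0.65 for Pdgfb, -1.21 to -0.78 for Ccnb1ip1 and -0.93 to -0.72 for Slc4a7. It ran from 0.78 to 0.97 for Klhl6, 0.68 to 0.89 for Cyth4 and 0.65 to 0.84 for Lsp1. Depth ran from 5810227 to 18660373 counts per library, the 2 replicate 1 libraries with anti-IgM being the shallowest. Whether the replicates are separate cultures is not said in the labels. The p-values therefore measure only how far these libraries spread, which may be technical variation.

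Across genes the response differences of the runs were weakly related. Pearson's r between replicates 1 and 2 was 0.19 over 11291 genes and 0.399 over the 8682 with a mean log2 CPM above 3 (a description, since the values of a run share libraries). The sign was the same in both runs for 60.8% of genes. Over all genes the median response difference was -0.02 (0.00014 and -0.03 in the runs), and the interquartile range ran from -0.18 to 0.15.

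**Figure D1:**
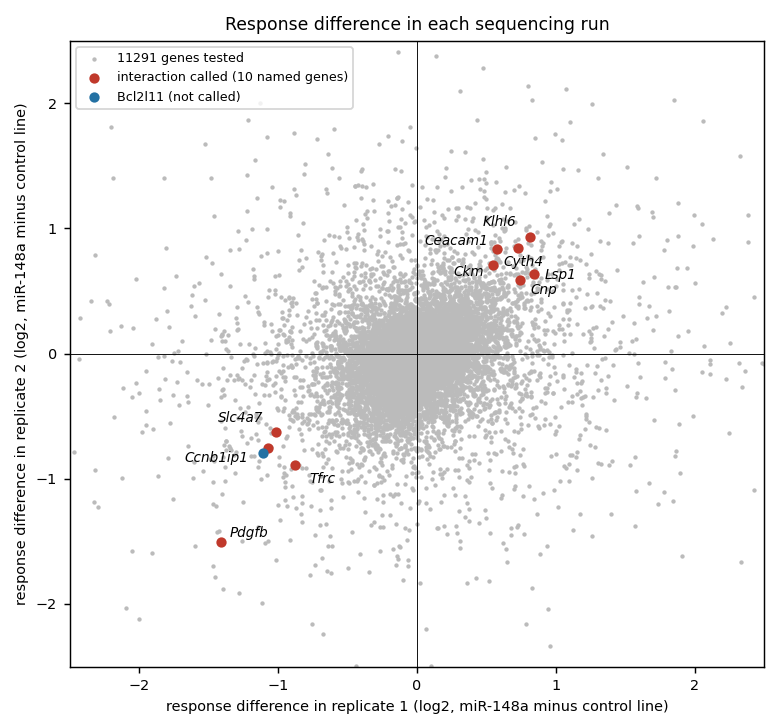
Response difference of each gene in replicate 1 (x axis) and in replicate 2 (y axis), both on the log2 scale, with 1 grey point per gene tested, the 10 called genes with a name in red and Bcl2l11 in blue. All 10 red points lie away from 0 in the same direction in both runs, between 0.55 and 0.93 or between -1.505 and -0.63. They were called from a fit over both runs, so this agreement follows from their selection and is no test of the calls. The grey cloud shows little relation between the runs, and 57 genes lie beyond the axis limits of 2.5.

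Tfrc, the transferrin receptor through which cells take up iron, had the lowest p. It stood at 1086 and 1008 CPM unstimulated and 817 and 673 CPM with anti-IgM in the control line, and at 880.0 and 842 CPM and 359 and 304 CPM in the miR-148a line (replicates 1 and 2 in each pair). Both anti-IgM libraries of the miR-148a line were below every other library, and no 2 groups overlapped. Tfrc fell in both lines, by a log2 fold change of -0.497 ± 0.07 in the control line (adjusted p = 0.000133), while that of the miR-148a line was -1.38 ± 0.07 (adjusted p = 7.51e-08). The response difference was -0.89 ± 0.101 (SE; adjusted p = 0.0053), with -0.88 and -0.89 in the runs. The gene lies on chromosome 16 from 32608920 to 32632794 in GRCm38 (GENCODE M21, matched by symbol, as for all positions below). Its call was lost without replicate 2 of the unstimulated miR-148a group (-0.81, adjusted p = 0.0814) and without the replicate block, and was kept under 13 of 15 alternatives.

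**Figure D2:**
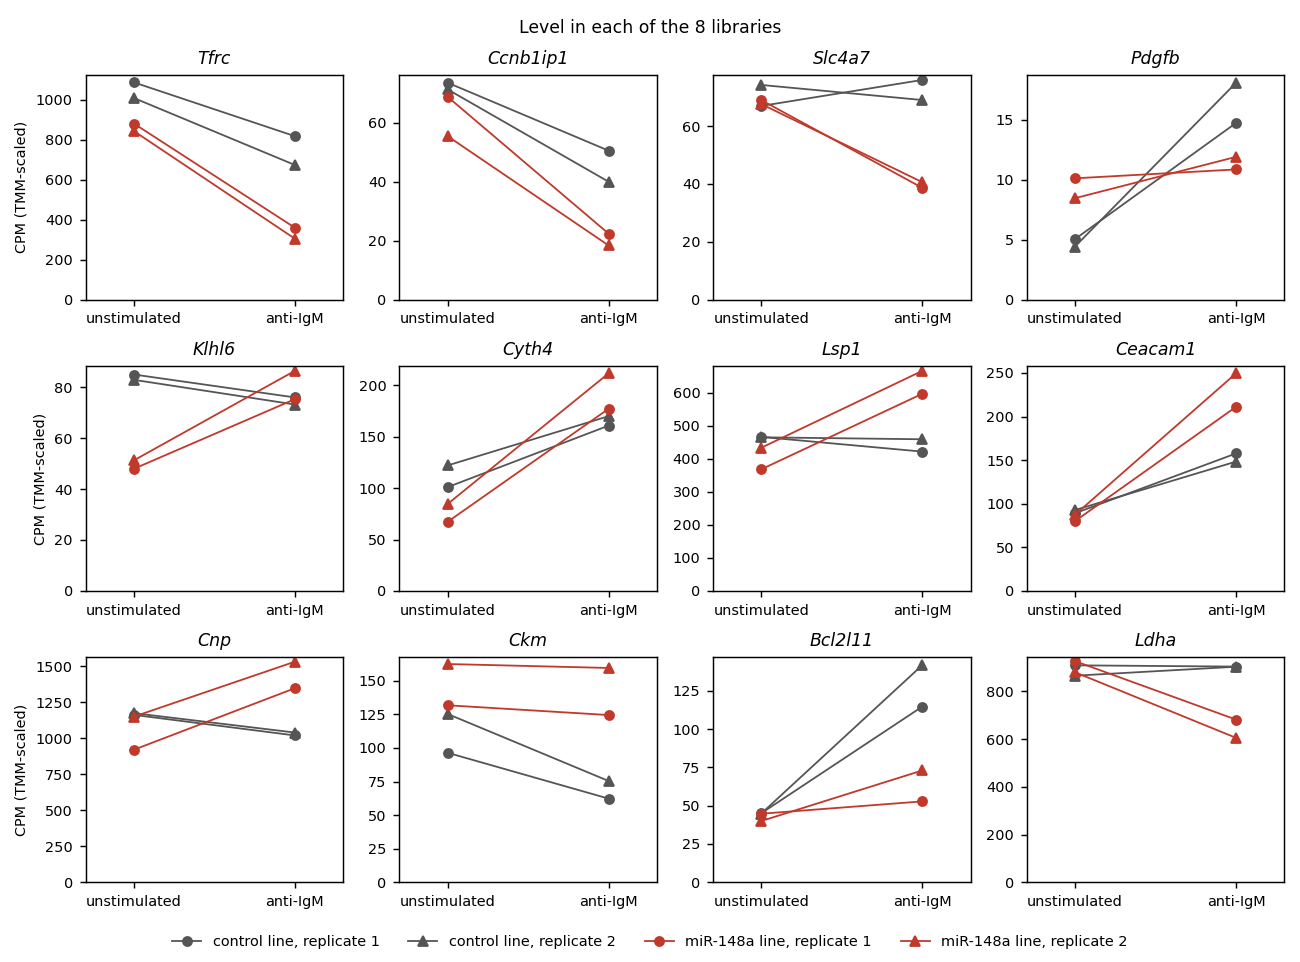
Level of 12 genes in each of the 8 libraries, in CPM scaled by TMM factors (y axis from 0), unstimulated and with anti-IgM. Grey lines join the libraries of the control line and red lines those of the miR-148a line, with circles for replicate 1 and triangles for replicate 2; Tfrc falls to 359 and 304 CPM in the miR-148a line and to 817 and 673 CPM in the control line. The last 2 panels, Bcl2l11 and Ldha, did not pass the test of the response difference.

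Ccnb1ip1 encodes a RING-finger protein of meiotic crossover formation. It stood at 73.7 and 71.4 CPM unstimulated and 50.6 and 40.0 CPM with anti-IgM in the control line, and at 68.9 and 55.5 CPM and 22.4 and 18.4 CPM in the miR-148a line. It fell in both lines, to lower levels in the 2 anti-IgM libraries of the miR-148a line than in any other. Between lines the response differed by -0.92 ± 0.15 (adjusted p = 0.0398; -1.07 and -0.75 in the runs), from responses of -0.69 and -1.61. It lies on chromosome 14 from 50789248 to 50807732.

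Slc4a7, a sodium bicarbonate cotransporter that takes part in pH control, stood at 67.0 and 74.3 CPM unstimulated and 76.0 and 69.1 CPM with anti-IgM in the control line, and at 69.0 and 67.6 CPM and 38.7 and 40.6 CPM in the miR-148a line. Its 6 libraries other than the anti-IgM libraries of the miR-148a line shared 1 range, and those 2 were lower. It fell in the miR-148a line (-0.78 ± 0.096, adjusted p = 1.65e-05), and its response in the control line was 0.03 ± 0.09 (adjusted p = 0.8). This gave a response difference of -0.82 ± 0.13 (adjusted p = 0.0398; -1.02 and -0.63 in the runs). It lies on chromosome 14 from 14702279 to 14799940.

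Pdgfb encodes the B chain of platelet-derived growth factor and had the largest negative response difference of the 4. It stood at 5.04 and 4.42 CPM unstimulated and 14.7 and 18.1 CPM with anti-IgM in the control line, and at 10.1 and 8.46 CPM and 10.9 and 11.9 CPM in the miR-148a line. Before stimulation both miR-148a libraries were above both control libraries, and with anti-IgM they were below them. Pdgfb rose in the control line (1.799 ± 0.18, adjusted p = 7.98e-06), and the response in the miR-148a line was 0.304 ± 0.17 (adjusted p = 0.171). The response difference was -1.495 ± 0.25 (adjusted p = 0.0414; -1.41 and -1.505 in the runs). It was the called gene with a miR-148a seed site, the 7mer-m8 site printed above. Thinned to the smallest library's depth, its value was -0.65 (adjusted p = 0.642). It lies on chromosome 15 from 79995874 to 80014977, where it overlaps the predicted gene Gm41361.

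Klhl6, an adaptor of a ubiquitin ligase that is needed for B cell receptor signalling and germinal centres, had the largest positive response difference of the 6 called genes with a name and a higher response. It stood at 85.0 and 82.9 CPM unstimulated and 76.0 and 73.2 CPM with anti-IgM in the control line, and at 48.0 and 51.3 CPM and 75.3 and 86.5 CPM in the miR-148a line. The 2 unstimulated miR-148a libraries were well below the other 6, and with anti-IgM the lines overlapped. Without stimulation it was lower in the miR-148a line, at -0.76 on the log2 scale (adjusted p = 0.000182), and with anti-IgM the line difference was 0.13 (adjusted p = 0.377). It rose in the miR-148a line (0.71 ± 0.09, adjusted p = 2.25e-05), with a response of -0.18 ± 0.09 in the control line (adjusted p = 0.132). Between lines the response differed by 0.89 ± 0.13 (adjusted p = 0.0176; 0.81 and 0.93 in the runs), on chromosome 16 from 19946496 to 19983037.

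Cyth4, a cytohesin that activates ARF GTPases, stood at 101 and 122 CPM unstimulated and 161 and 170.1 CPM with anti-IgM in the control line, and at 67.2 and 84.6 CPM and 177 and 212 CPM in the miR-148a line. It too was lower in the unstimulated miR-148a libraries than in the unstimulated control libraries (line difference -0.56, adjusted p = 0.000911), while with anti-IgM the miR-148a libraries were the higher ones (line difference 0.23, adjusted p = 0.0606). It rose in both lines, by 0.57 and 1.36. This gave a response difference of 0.79 ± 0.11 (adjusted p = 0.0176; 0.73 and 0.85 in the runs), on chromosome 15 from 78597047 to 78622019.

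Lsp1, a leukocyte protein that binds F-actin, stood at 466 and 464 CPM unstimulated and 421 and 459 CPM with anti-IgM in the control line, and at 368 and 433 CPM and 596 and 666 CPM in the miR-148a line. The 2 anti-IgM libraries of the miR-148a line were the highest of the 8. It rose in that line (0.66 ± 0.07, adjusted p = 6.68e-06), and its response in the control line was -0.08 ± 0.07 (adjusted p = 0.399). The response difference was 0.74 ± 0.102 (adjusted p = 0.0176; 0.84 and 0.64 in the runs). It lies on chromosome 7 from 142460809 to 142494867 and overlaps Prr33.

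Ceacam1, an adhesion receptor with inhibitory motifs, stood at 89.1 and 92.8 CPM unstimulated and 158 and 148 CPM with anti-IgM in the control line, and at 80.1 and 87.4 CPM and 211 and 249.6 CPM in the miR-148a line. It rose in both lines, by 0.75 and 1.46, and reached its 2 highest levels in the anti-IgM libraries of the miR-148a line. Between lines the response differed by 0.72 ± 0.12 (adjusted p = 0.0414; 0.57 and 0.84 in the runs), on chromosome 7 from 25461707 to 25477603, where 4732471J01Rik overlaps it.

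Cnp, a cyclic nucleotide phosphodiesterase best known from myelin, stood at 1162 and 1174 CPM unstimulated and 1019.6 and 1039.7 CPM with anti-IgM in the control line, and at 920.2 and 1150.1 CPM and 1348 and 1532 CPM in the miR-148a line. It rose in the miR-148a line (0.48 ± 0.08, adjusted p = 0.000174), with -0.18 ± 0.08 in the control line (adjusted p = 0.0811). This gave a response difference of 0.66 ± 0.11 (adjusted p = 0.0414; 0.74 and 0.59 in the runs), on chromosome 11 from 100574904 to 100591729, a position it shares in part with Dnajc7.

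Ckm, the creatine kinase of muscle, stood at 96.4 and 125 CPM unstimulated and 62.3 and 75.4 CPM with anti-IgM in the control line, and at 132 and 162 CPM and 125 and 159.6 CPM in the miR-148a line. It fell in the control line (-0.69 ± 0.08, adjusted p = 2.03e-05), and the miR-148a libraries of the 2 conditions overlapped (-0.05 ± 0.07, adjusted p = 0.581). The miR-148a line had more Ckm in both conditions, by 0.41 without and 1.05 with anti-IgM. The response difference was 0.63 ± 0.11 (adjusted p = 0.0414; 0.55 and 0.71 in the runs), on chromosome 7 from 19404776 to 19422841, where A930016O22Rik overlaps it. The strand setting of the counting is not given here, so reads of overlapping genes cannot be told apart.

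The seventh gene with a higher response, 1700088E04Rik on chromosome 15, falls outside the rule for named genes as a predicted gene and is named because it was called. Control libraries, which differ in depth, held estimated counts of 12.7 and 8.98 before stimulation, and 4.92 and 5.54 after anti-IgM. Scaled by library this was 0.72 and 0.812 CPM unstimulated and 0.837 and 0.522 CPM with anti-IgM. The response in the control line was -0.16 ± 0.57 (adjusted p = 0.854). In the miR-148a line the estimated counts were 0 after rounding in both unstimulated libraries, against 15.8 and 18.1 with anti-IgM (2.63 and 1.66 CPM). Against a floor of 3 counts in each unstimulated library, the level with anti-IgM was at least 11.4-fold higher in replicate 1 and at least 7.20-fold higher in replicate 2. The fitted response difference (7.72 ± 1.29, adjusted p = 0.0475) depends on the prior count and is no bound. The transcript overlaps Micall1 and Polr2f, and its values are uncertain because how reads of overlapping genes were divided is not given here.

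The called genes did not share 1 form of difference. Tfrc and Ccnb1ip1 fell in both lines and by more in the miR-148a line, and Cyth4 and Ceacam1 rose in both and by more there. Lsp1, Klhl6, Cnp and 1700088E04Rik passed as a rise in the miR-148a line alone, Slc4a7 as a fall there alone, Pdgfb as a rise and Ckm as a fall in the control line alone. The lines differed at a given condition with anti-IgM alone for 5 of the 11, in both conditions for 4, and without stimulation alone for Klhl6 and Cyth4. Over all genes the line difference was called for 823 genes without stimulation, 7.29% (442 higher, 3.91%, and 381 lower, 3.37%, in the miR-148a line), and for 1822 with anti-IgM, 16.1% (892 higher, 7.9%, and 930 lower, 8.24%). These contrasts share libraries with the response difference and are given side by side, not as support for it.

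**Figure D3:**
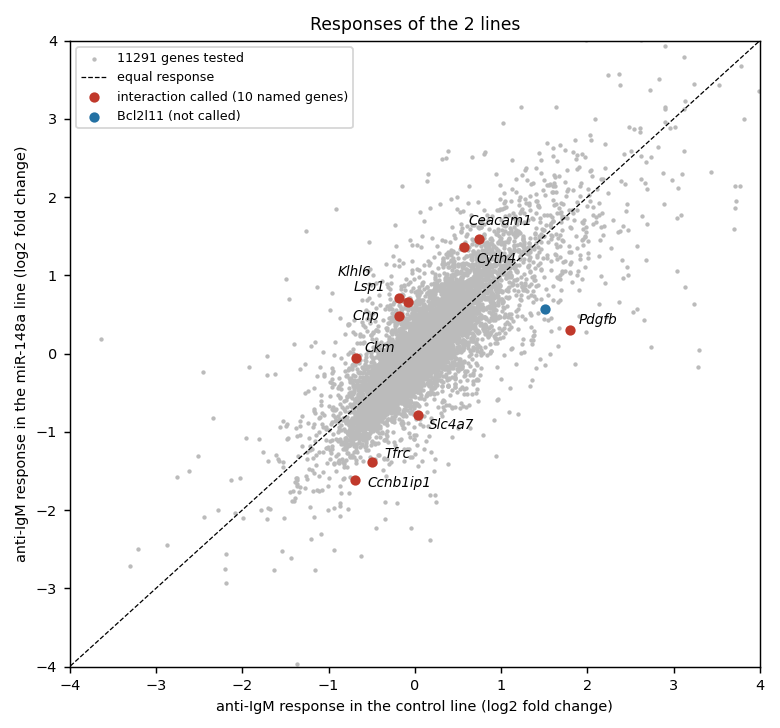
Response to anti-IgM in the control line (x axis) and in the miR-148a line (y axis), both as log2 fold changes, with 1 grey point per gene tested. The dashed line marks equal responses; Pdgfb (1.799 and 0.304) and Bcl2l11 (1.51 and 0.58) lie below it among genes that rose in the control line, and Lsp1, Klhl6 and Cnp lie above it near 0 on the x axis. Beyond the axis limits of 4 lie 19 genes.

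Bcl2l11, which encodes the pro-apoptotic protein Bim and holds 3 seed sites, came close to the threshold. It stood at 45.1 and 44.8 CPM unstimulated and 115 and 142 CPM with anti-IgM in the control line, and at 44.7 and 40.0 CPM and 52.8 and 73.0 CPM in the miR-148a line. The 4 unstimulated libraries were alike, and with anti-IgM both control libraries were above both miR-148a libraries. It rose in the control line (1.51 ± 0.12, adjusted p = 1.4e-06) and, less steeply, in the miR-148a line (0.58 ± 0.13, adjusted p = 0.00195). Between lines the response differed by -0.93 ± 0.17 with an unadjusted p of 9.66e-05 and did not pass (adjusted p = 0.0605; -1.11 and -0.79 in the runs). DESeq2 with the block gave -0.92 (adjusted p = 0.00713), which is a call. With limma-voom (-0.92, adjusted p = 0.0631) and when thinned to the smallest library (-0.898, adjusted p = 0.0834) it was not called. It was called under 5 of the 15 alternatives, and the value kept its sign under every one of them, from -1.17 to -0.72. The gene lies on chromosome 2 from 128126038 to 128162547.

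Gadd45a, which is induced by DNA damage and slows growth and holds an 8mer site, was low, at 0.998 and 0.451 CPM unstimulated and 1.51 and 0.87 CPM with anti-IgM in the control line, and at 1.84 and 0.922 CPM and 1.15 and 0.738 CPM in the miR-148a line. For comparison, 3 counts were 0.166 to 0.502 CPM. The groups overlapped and the response difference was -1.21 ± 0.63 (adjusted p = 0.483), with -1.12 and -0.999 in the runs. The test at this depth does not show whether there was a difference. Both Bcl2l11 and Gadd45a were followed in such cells by the study's authors, so their values are not independent evidence of a direction.

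Among the genes that came next without passing, Ccl22 and Tespa1, with negative response differences, act in immune signalling. Ccl22, a chemokine for regulatory and helper T cells, stood at 72.8 and 84.9 CPM unstimulated and 84.2 and 144 CPM with anti-IgM in the control line, and at 66.3 and 60.8 CPM and 38.3 and 44.6 CPM in the miR-148a line (response difference -1.17 ± 0.21, adjusted p = 0.0565). In the control line it rose (0.53, adjusted p = 0.00962), and the miR-148a line showed a fall (-0.63, adjusted p = 0.00458). Tespa1, a lymphocyte signalling protein, had a response difference of -1.55 ± 0.29 (adjusted p = 0.0605), with unequal run values of -0.68 and -2.24.

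Ldha, the lactate dehydrogenase of glycolysis, stood at 908 and 865 CPM unstimulated and 903 and 903 CPM with anti-IgM in the control line, and at 926 and 879.5 CPM and 681 and 605 CPM in the miR-148a line. The 6 other libraries lay within 1 range above the 2 anti-IgM libraries of the miR-148a line, with a response difference of -0.52 ± 0.09 (adjusted p = 0.0565). Chpf, a chondroitin synthase, had -0.900 ± 0.18 (adjusted p = 0.0605).

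On the higher side, Pirb, an inhibitory immunoglobulin-like receptor, stood at 23.7 and 20.03 CPM unstimulated and 37.5 and 38.9 CPM with anti-IgM in the control line, and at 23.0 and 29.2 CPM and 77.8 and 92.8 CPM in the miR-148a line. It rose in both lines and to its 2 highest levels in the miR-148a line, with a response difference of 0.94 ± 0.17 (adjusted p = 0.0605). Plekha7, an adherens junction protein, stood at 24.9 and 26.3 CPM unstimulated and 39.7 and 38.5 CPM with anti-IgM in the control line, and at 24.98 and 29.9 CPM and 71.9 and 70.2 CPM in the miR-148a line (0.77 ± 0.14, adjusted p = 0.0605). Ccpg1, a receptor for the autophagy of endoplasmic reticulum, had 0.71 ± 0.13 (adjusted p = 0.0605) and rose in the miR-148a line (0.79, adjusted p = 1.21e-05). Zfp710, a zinc finger gene with 2 seed sites, had 0.72 ± 0.13 (adjusted p = 0.0535), the opposite sign to Bcl2l11. None of these passed.

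A response in opposite directions, with each of the 2 responses called, was found for 7 genes, and the response difference was called for none of them (adjusted p from 0.0565 to 0.105). Ccl22, the cytokine receptor Il21r, the lipoprotein receptor Scarb1 and the Golgi protein Plekha3 rose in the control line and fell in the miR-148a line. Cmtm7, a B cell surface protein, the sialyltransferase St3gal1 and the adenylosuccinate synthase Adssl1 did the reverse. Il21r stood at 39.3 and 42.0 CPM unstimulated and 44.2 and 64.1 CPM with anti-IgM in the control line, and at 34.5 and 31.1 CPM and 24.8 and 23.3 CPM in the miR-148a line (-0.897 ± 0.19), and Cmtm7 at 57.1 and 64.6 CPM unstimulated and 48.4 and 49.6 CPM with anti-IgM in the control line, and at 60.8 and 68.5 CPM and 75.7 and 83.4 CPM in the miR-148a line (0.62 ± 0.12). These 7 were chosen for the signs of their responses, so the signs are a description.

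Of the genes that responded in both lines, 3288 moved the same way, and on balance they moved further in the miR-148a line. Of 1621 that rose in both, 68.7% rose by more there (60.1% and 68.2% in the runs), with median responses of 0.63 in the control line and 0.78 in the miR-148a line. Of 1667 that fell in both, 76.7% fell by more there (57.6% and 82.1% in the runs), with medians of -0.44 and -0.56. By run, the medians of those that fell were -0.46 and -0.49 in replicate 1 and -0.42 and -0.61 in replicate 2, so the lines were close in replicate 1. For those that rose they were 0.62 and 0.73 in replicate 1 and 0.65 and 0.78 in replicate 2. A response was called in the control line alone for 634 genes and in the miR-148a line alone for 1910, which is no test of a difference. Along the first principal component (49.4% of the variance), the shift from unstimulated to anti-IgM was 53.5 and 52.1 units in the control line and 58.8 and 64.1 in the miR-148a line. Replicate 2 of its anti-IgM group lay furthest out of the 8 libraries. The part of this shift in single response differences was not tested.

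To describe pathways, 26 lists were set against all genes tested, of which 46.4% had a positive response difference. No member of any list was called, so the lists are described by the counts and medians of their members. The plot of response differences by gene list shows 21 of them. List medians depended on single libraries, and each library whose removal moved a median by over 1.5 times or past 0 is named beside it, or, for medians close to 0, the lowest and highest value is given (first and second library stand for replicates 1 and 2).

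**Figure D4:**
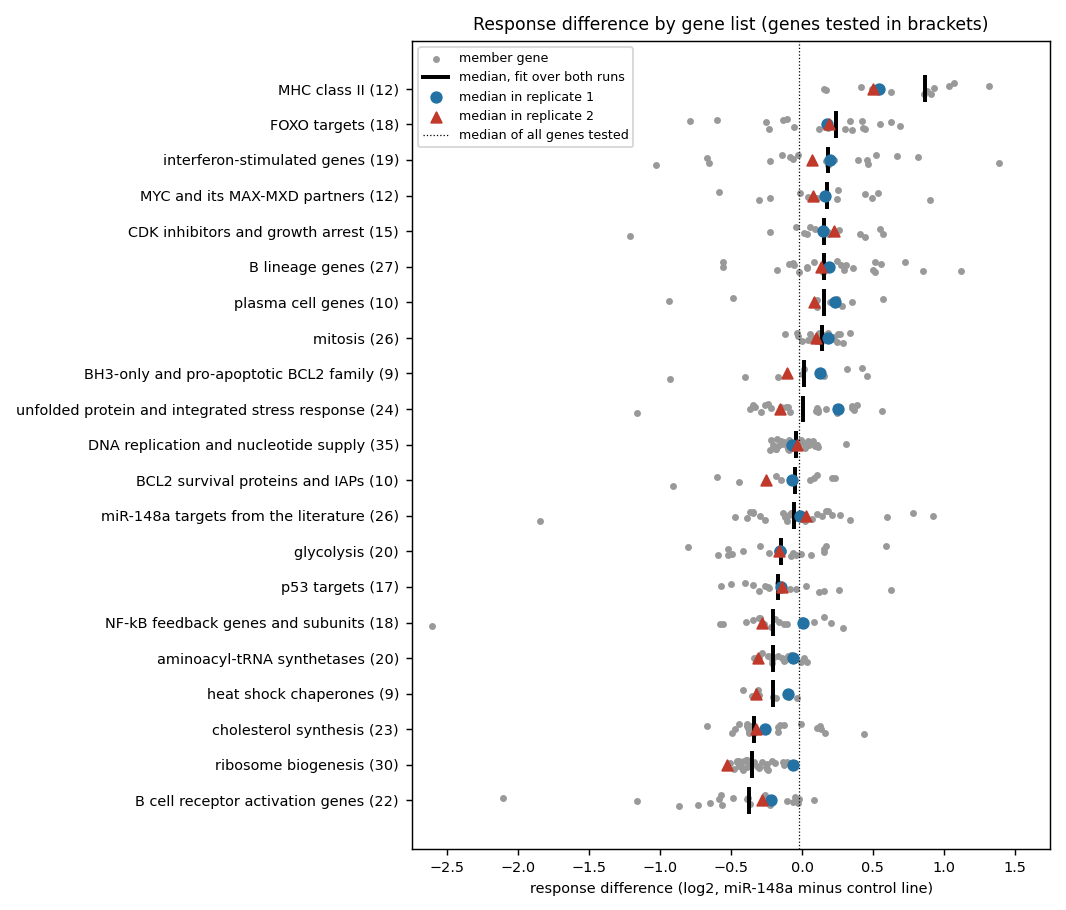
Response difference (x axis, log2, miR-148a minus control line) of the members of 21 gene lists, 1 grey point per gene tested, with the number tested in brackets. Black bars mark the median of the fit, blue circles and red triangles the medians in replicates 1 and 2, and the dotted line the median of all genes. MHC class II genes lie to the right (median 0.87), and ribosome biogenesis genes to the left (median -0.35), with replicate 1 near 0 for the latter.

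MHC class II genes, which present antigen to helper T cells, had a positive response difference in 12 of 12, with a median of 0.87 (0.54 and 0.502 in replicates 1 and 2). Run values use a prior count of 2, which shrinks differences of genes with few counts. Why both run medians lie below that of the fit was not tested. The run values were 0.82 and 0.43 for H2-Aa and 0.83 and 0.57 for H2-Eb1, against 0.86 and 0.88 in the fit. In the control line 5 of 12 rose and in the miR-148a line 12 of 12, and none fell. Among all genes 17.6% and 22.8% rose in these lines, and 17.2% and 23.3% fell. The miR-148a line started lower: 9 of 12 were called lower without stimulation (median line difference -1.49) and 5 with anti-IgM (median -0.56), against 3.37% and 8.24% of all genes. Ciita, their transcriptional activator, stood at 35.0 and 32.9 CPM unstimulated and 74.5 and 97.6 CPM with anti-IgM in the control line, and at 7.59 and 14.2 CPM and 33.4 and 77.1 CPM in the miR-148a line. It rose in both lines, and the 2 unstimulated miR-148a libraries were the lowest. Its response difference was 1.07 ± 0.301 and did not pass (adjusted p = 0.19).

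H2-Aa, a chain of the class II molecule, stood at 46.2 and 36.5 CPM unstimulated and 40.3 and 70.2 CPM with anti-IgM in the control line, and at 9.42 and 16.1 CPM and 14.6 and 41.9 CPM in the miR-148a line. H2-Eb1, another chain, stood at 103 and 67.1 CPM unstimulated and 104 and 129 CPM with anti-IgM in the control line, and at 23.4 and 31.1 CPM and 42.3 and 88.9 CPM in the miR-148a line. In both, the anti-IgM miR-148a libraries differed widely between replicates, and the unstimulated miR-148a libraries were below every control library. The response differences were 0.86 ± 0.39 (adjusted p = 0.412) and 0.88 ± 0.34 (adjusted p = 0.338). Cd74, the invariant chain, had 0.49 ± 0.24 (adjusted p = 0.459), and H2-DMa, a peptide exchange factor, 0.93 ± 0.24 (adjusted p = 0.132). Without the second anti-IgM miR-148a library the list median was 0.09, and leaving out replicate 1 of the unstimulated control group gave 0.15. Class II genes are similar in sequence, and how reads were divided between them is not given here.

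B lineage genes also leaned to the positive side, in 20 of 27, with a median of 0.15 (0.19 and 0.13 in replicates 1 and 2). In each line 9 rose and 8 fell. With anti-IgM 11 were higher and 1 was lower in the miR-148a line, and without stimulation 6 and 3, against 7.9% and 8.24% of all genes with anti-IgM and 3.91% and 3.37% without stimulation. The median was 0.09 without the first unstimulated control library, 0.23 without the first anti-IgM miR-148a library, 0.25 without the second anti-IgM control library and 0.25 without the second unstimulated control library. Ly6d, a surface marker of B cell commitment, fell in both lines and stood at 819 and 729 CPM unstimulated and 182 and 169 CPM with anti-IgM in the control line, and at 1070.5 and 812 CPM and 355 and 261 CPM in the miR-148a line (0.52 ± 0.12, adjusted p = 0.105). Fcrla, an Fc receptor-like protein of B cells, stood at 44.1 and 36.5 CPM unstimulated and 74.2 and 88.6 CPM with anti-IgM in the control line, and at 26.3 and 37.2 CPM and 96.0 and 129 CPM in the miR-148a line (0.85 ± 0.196, adjusted p = 0.105). Among signalling components, Cd79a had 0.36 ± 0.096 (adjusted p = 0.165), the adaptor Blnk 0.499 ± 0.13 (adjusted p = 0.172) and the inhibitory receptor Cd22 0.51 ± 0.13 (adjusted p = 0.132). The sum over 9 B lineage markers was 2053 to 2236 CPM in the anti-IgM control libraries and 2586 to 2903 CPM in those of the miR-148a line, against 2069 to 2299 CPM in the 4 unstimulated libraries.

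Genes activated through the receptor leaned the other way. Of 22 tested B cell receptor activation genes, 21 had a negative response difference in the fit and 11 in both runs. The list median was -0.37 (-0.22 and -0.29 in replicates 1 and 2). Their responses were mixed, with 12 rising and 5 falling in the control line and 11 and 5 in the miR-148a line. Of all genes 17.6% rose and 17.2% fell in the control line, and 22.8% and 23.3% in the miR-148a line. Dusp6, a phosphatase that limits ERK signalling, stood at 1.61 and 0.812 CPM unstimulated and 7.53 and 3.39 CPM with anti-IgM in the control line, and at 2.07 and 0.846 CPM and 3.62 and 2.03 CPM in the miR-148a line (-1.17 ± 0.44, adjusted p = 0.323). Junb, a subunit of AP-1, stood at 85.8 and 88.6 CPM unstimulated and 121 and 147 CPM with anti-IgM in the control line, and at 91.6 and 89.6 CPM and 112 and 120.4 CPM in the miR-148a line and rose in both lines, by 0.62 and 0.36 (-0.26 ± 0.12, adjusted p = 0.423). Fos was near the floor, with 0 counts in 1 unstimulated control library, and its value of -2.11 is not a bound. Of the 22 genes, 8 never exceeded 10 CPM, and leaving out replicate 2 of the anti-IgM control group gave a list median of -0.05. Leaving out replicate 1 of the unstimulated miR-148a group gave -0.14.

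Myc, a driver of growth whose loss marks arrest in these cells, stood at 257 and 296 CPM unstimulated and 55.4 and 137.3 CPM with anti-IgM in the control line, and at 335 and 315 CPM and 78.1 and 75.7 CPM in the miR-148a line. It fell in both lines (-1.52 and -2.103). In replicate 1 the anti-IgM level was higher in the miR-148a line and in replicate 2 in the control line, so the run values were 0.11 and -0.95 and the response difference of -0.59 ± 0.300 did not pass (adjusted p = 0.475). Its sign changed, to 0.22, when the second anti-IgM control library was left out.

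Ribosome biogenesis genes fell in both lines, 30 of 30 in each, against 17.2% of all genes in the control line and 23.3% in the miR-148a line. The members' response difference was negative in 30 of 30 in the fit, and in 22 in both runs. The list median was -0.35 (-0.06 and -0.53 in replicates 1 and 2), with the larger size in replicate 2. It was -0.12 and -0.13 when replicate 2 of the anti-IgM control or miR-148a group was left out, against -0.54 without replicate 1 of the latter. Utp20, a component of the small subunit processome, stood at 237 and 274 CPM unstimulated and 169 and 227 CPM with anti-IgM in the control line, and at 269.9 and 277 CPM and 162 and 151 CPM in the miR-148a line (-0.44 ± 0.14, adjusted p = 0.24). Tsr1, an assembly factor of the small subunit, stood at 197 and 215 CPM unstimulated and 123 and 134 CPM with anti-IgM in the control line, and at 219 and 216 CPM and 112 and 94.6 CPM in the miR-148a line (-0.41 ± 0.13, adjusted p = 0.232). In both genes the anti-IgM libraries of replicate 1 lay close together and those of replicate 2 apart. Without stimulation no member differed between the lines, and with anti-IgM 15 of 30 were lower in the miR-148a line, against 8.24% of all genes.

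Other genes of growth and metabolism were mostly negative too. Aminoacyl-tRNA synthetases, which charge tRNAs for translation, were negative in 18 of 20, and in 14 in both runs. Their list median was -0.21 (-0.06 and -0.31 in replicates 1 and 2). The methionine and isoleucine enzymes Mars and Iars had -0.32 ± 0.11 (adjusted p = 0.264) and -0.31 ± 0.12 (adjusted p = 0.348). The median of the synthetases was -0.32 without the first anti-IgM miR-148a library, -0.13 without the first unstimulated control library, -0.11 without the second anti-IgM control library and -0.06 without the second anti-IgM miR-148a library. Cholesterol synthesis genes fell in 19 of 23 in the control line and in 20 in the miR-148a line, against 17.2% and 23.3% of all genes. The response difference of cholesterol synthesis genes was negative in 18, with a median of -0.34 (-0.26 and -0.32 in replicates 1 and 2). That median was -0.23 without the first unstimulated control library and -0.18 without the second anti-IgM miR-148a library. Hmgcs1, which makes the precursor of mevalonate, stood at 370.3 and 368 CPM unstimulated and 267 and 211 CPM with anti-IgM in the control line, and at 478 and 391 CPM and 231 and 168 CPM in the miR-148a line (-0.49 ± 0.13, adjusted p = 0.158). Idi1, the isopentenyl diphosphate isomerase, stood at 436 and 372 CPM unstimulated and 231 and 172 CPM with anti-IgM in the control line, and at 331 and 256 CPM and 134 and 90.9 CPM in the miR-148a line (-0.39 ± 0.12, adjusted p = 0.226), with run values of -0.39 and -0.38. Glycolysis genes were negative in 15 of 20, with a median of -0.15 (-0.15 and -0.16 in replicates 1 and 2), and hexokinase Hk2 had -0.496 ± 0.13 (adjusted p = 0.132). The glycolysis median was -0.26 without the first unstimulated miR-148a library, -0.24 without the second anti-IgM control library, -0.03 without the second unstimulated miR-148a library and -0.03 without the first anti-IgM control library. Heat shock chaperones were negative in 9 of 9, and in 7 in both runs, with a list median of -0.21 (-0.099 and -0.33 in replicates 1 and 2). The chaperones Hspd1 and Hsph1 had -0.35 ± 0.12 (adjusted p = 0.26) and -0.41 ± 0.14 (adjusted p = 0.261). The chaperone median was -0.31 without the first anti-IgM miR-148a library and -0.05 without the second anti-IgM miR-148a library.

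Unfolded protein and stress response genes split evenly, 12 positive and 12 negative, and the runs disagreed in sign, with a median of 0.0039 (0.25 and -0.15 in replicates 1 and 2). With 1 library left out it ran from -0.14 without the first anti-IgM miR-148a library to 0.25 without the second anti-IgM miR-148a library. Sdf2l1, a chaperone cofactor of the endoplasmic reticulum, had 0.57 ± 0.17 (adjusted p = 0.227) and run values of 0.92 and 0.26. Among NF-kB genes 13 of 18 were negative, 9 of them in both runs, with a list median of -0.21 (0.0057 and -0.28 in replicates 1 and 2). It was -0.32 without the first anti-IgM control library, -0.12 without the first unstimulated miR-148a library, -0.07 without the second anti-IgM miR-148a library and -0.0064 without the second anti-IgM control library. Nfkb2 stood at 87.1 and 89.6 CPM unstimulated and 72.0 and 95.9 CPM with anti-IgM in the control line, and at 124 and 109 CPM and 72.2 and 79.3 CPM in the miR-148a line (-0.56 ± 0.16, adjusted p = 0.196), and Cd83, an activation marker near the floor, had -2.61 ± 0.76 (adjusted p = 0.21).

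Mitosis genes were positive in 22 of 26, with a small median of 0.14 (0.18 and 0.098 in replicates 1 and 2). It was 0.04 without the first unstimulated miR-148a library, 0.08 without the second anti-IgM control library, 0.22 without the second anti-IgM miR-148a library and 0.25 without the second unstimulated miR-148a library. Mitosis genes rose in 15 of 26 in the control line and in 21 in the miR-148a line, against 17.6% and 22.8% of all genes. In the miR-148a line 1 fell, against 23.3% of all genes. Kif20a, a kinesin of cytokinesis, stood at 168 and 164 CPM unstimulated and 219.8 and 191 CPM with anti-IgM in the control line, and at 158 and 163 CPM and 271 and 232 CPM in the miR-148a line (0.34 ± 0.12, adjusted p = 0.26). Kif23, a kinesin of the central spindle, had 0.29 ± 0.11 (adjusted p = 0.34). DNA replication genes had a median of -0.04 (-0.07 and -0.03 in replicates 1 and 2), with 13 of 35 positive, which ran from -0.08 without the second anti-IgM control library to -0.02 without the second unstimulated miR-148a library, and cyclin E1, Ccne1, had 0.31 ± 0.11 (adjusted p = 0.301). CDK inhibitors and growth arrest genes were positive in 12 of 15, with a median of 0.16 (0.15 and 0.22 in replicates 1 and 2), and Cdkn2d, an inhibitor of CDK4 and CDK6, had 0.55 ± 0.23 (adjusted p = 0.373). Their median was 0.02 without the second anti-IgM miR-148a library, 0.03 without the first unstimulated control library and 0.08 without the second anti-IgM control library.

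Among pro-apoptotic BCL2 family genes, Bcl2l11 had the lowest response difference. The list had a median of 0.01 (0.12 and -0.11 in replicates 1 and 2), with 5 of 9 positive, and ran from -0.05 without the first anti-IgM control library to 0.08 without the second anti-IgM miR-148a library. Bmf and Bak1, which also rose in both lines, had 0.46 ± 0.38 (adjusted p = 0.684) and 0.31 ± 0.14 (adjusted p = 0.4). Bid fell in both lines, and its response difference was 0.01 ± 0.11 (adjusted p = 0.979). Survival proteins had a median of -0.05 (-0.07 and -0.25 in replicates 1 and 2), in which Mcl1 had 0.24 ± 0.097 (adjusted p = 0.369) and Bcl2a1d -0.598 ± 0.23 (adjusted p = 0.338), the latter being 1 of several near-identical copies. The survival median ran from -0.21 without the first anti-IgM control library to -0.03 without the second unstimulated control library.

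FOXO targets were positive in 11 of 18, with a median of 0.24 (0.18 and 0.19 in replicates 1 and 2); Txnip, an inhibitor of thioredoxin, had 0.55 ± 0.16 (adjusted p = 0.207) and Trib1, a pseudokinase, -0.79 ± 0.19 (adjusted p = 0.124). The FOXO median was -0.02 without the second anti-IgM miR-148a library, -0.0017 without the first unstimulated control library, 0.102 without the first unstimulated miR-148a library, 0.12 without the second anti-IgM control library, 0.38 without the first anti-IgM miR-148a library and 0.43 without the second unstimulated control library. Interferon-stimulated genes were positive in 11 of 19, with a median of 0.18 (0.19 and 0.07 in replicates 1 and 2), with Irf7 at -1.03 ± 0.28 (adjusted p = 0.18). The interferon median was 0.09 without the second unstimulated control library, 0.102 without the second unstimulated miR-148a library and 0.12 without the first anti-IgM control library. The p53 targets were negative in 12 of 17, with a median of -0.17 (-0.15 and -0.14 in replicates 1 and 2), Trp53 itself at -0.35 ± 0.11 (adjusted p = 0.232) and Ddit4, an inhibitor of mTOR, at 0.63 ± 0.196 (adjusted p = 0.232). The p53 median was -0.37 without the first anti-IgM miR-148a library, -0.31 without the second unstimulated control library and -0.0079 without the first unstimulated control library. Plasma cell genes were positive in 8 of 10, with a median of 0.15 (0.23 and 0.08 in replicates 1 and 2), although Irf4, a factor of plasma cell differentiation, had -0.49 ± 0.16 (adjusted p = 0.253) and Derl3 0.57 ± 0.14 (adjusted p = 0.125). The plasma cell median was 0.04 without the first anti-IgM miR-148a library, 0.09 without the first unstimulated miR-148a library and 0.24 without the second anti-IgM miR-148a library. MYC and its MAX-MXD partners were positive in 8 of 12, with a median of 0.18 (0.16 and 0.08 in replicates 1 and 2), Mlxip at -0.303 ± 0.12 (adjusted p = 0.364) and Mga at -0.22 ± 0.098 (adjusted p = 0.405). The median of these partners was 0.09 without the first unstimulated miR-148a library and 0.09 without the second anti-IgM miR-148a library.

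Among genes with a miR-148a seed site more were called lower than higher in the miR-148a line in both conditions. A 3′ UTR was found for 10823 of the genes tested, 95.9%. Of 465 with an 8mer site, 4.296% of these, 73 were lower and 17 higher in the miR-148a line without stimulation, and 110 lower and 24 higher with anti-IgM (23.7% and 5.16%). Of 9158 without a site, 246 were lower and 371 higher without stimulation and 677 lower and 755 higher with anti-IgM (7.39% and 8.24%). Over all genes tested the shares lower and higher were 3.37% and 3.91% without stimulation, and 8.24% and 7.9% with anti-IgM. The median line difference of genes with an 8mer site was -0.07 without stimulation and -0.13 with anti-IgM, against 0.0098 and -0.0044 for genes without a site. Genes with a 7mer-m8 site as their longest, 1200 in number, lay between, at -0.0044 and -0.03. Mature miR-148a is not captured by polyA selection, so its level cannot be read from these libraries. The seed is shared with the relatives shown above, and the groups were not matched for 3′ UTR length. Whether the microRNA lies behind these line differences was not tested.

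The response difference of genes with an 8mer site was centred on a median of -0.05 (-0.06 in replicate 1 and -0.03 in replicate 2), with 58.7% negative. It was -0.02 for genes with a 7mer-m8 site (54.4% negative) and -0.02 for genes without a site (53.2% negative). No gene with an 8mer site was called, where 0.0974% of all genes tested were. At an unadjusted p under 0.05, 36 of these 465 genes were lower and 17 higher. Among the 9158 genes without a site 524 were lower and 523 higher, and over all genes tested 6.08% and 5.56%. Of the 11 called genes, 10 have no site, and Pdgfb has 1. Among all genes with a 3′ UTR found, 84.6% have no site, so these counts are too few to show a difference. These groups were described and not tested.

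**Figure D5:**
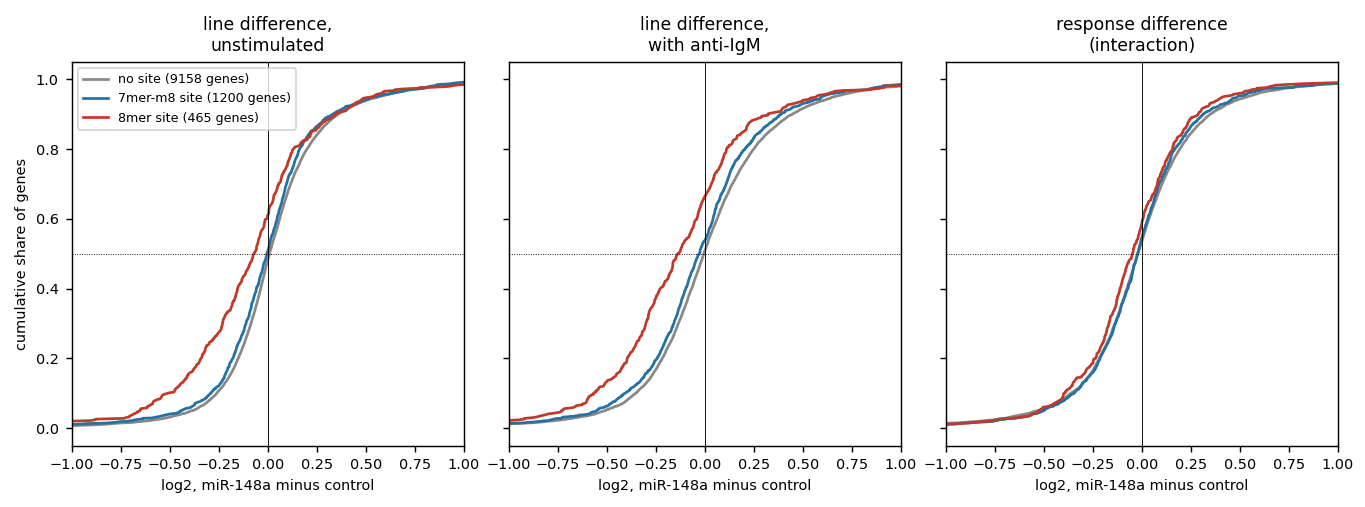
Cumulative share of genes (y axis) by line difference without stimulation, line difference with anti-IgM and response difference (x axes, log2), for genes whose longest 3′ UTR holds an 8mer site, a 7mer-m8 site or none. The 8mer curve lies to the left of the others in the first 2 panels (medians -0.07 and -0.13) and close to them in the third (median -0.05); values beyond 1 in size are outside the axes.

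Targets of miR-148a from the literature were positive in 12 of 26, with a median of -0.06 (-0.02 and 0.03 in replicates 1 and 2), which ran from -0.08 without the first unstimulated control library to 0.03 without the first anti-IgM miR-148a library. Cdc25b, a phosphatase that activates cyclin-dependent kinases, stood at 33.4 and 27.9 CPM unstimulated and 88.2 and 56.6 CPM with anti-IgM in the control line, and at 20.3 and 17.6 CPM and 87.3 and 65.0 CPM in the miR-148a line. It was lower in the miR-148a line without stimulation (-0.69, adjusted p = 0.00285), and its response difference was 0.78 ± 0.15 (adjusted p = 0.0629). Csf1, a macrophage growth factor, stood at 0.72 and 0.541 CPM unstimulated and 10.4 and 6.44 CPM with anti-IgM in the control line, and at 1.38 and 0.461 CPM and 3.12 and 3.23 CPM in the miR-148a line (-1.85 ± 0.57, adjusted p = 0.232). The control libraries with anti-IgM stood highest, while the unstimulated levels of Csf1 were low, at 0.461 to 1.38 CPM. The DNA methyltransferase Dnmt1 was lower in the miR-148a line in both conditions (-0.38 and -0.35), with a response difference of 0.02 ± 0.096 (adjusted p = 0.953), and so was the kinase Rock1 (-0.51 and -0.58), with -0.08 ± 0.11 (adjusted p = 0.832). Abca1 was higher there in both conditions (0.74 and 0.91). Of the 26, 4 were called higher and 5 lower without stimulation, against 3.91% and 3.37% of all genes. With anti-IgM 2 were higher and 4 lower, against 7.9% and 8.24%.

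Some markers of other cell types were at 0 and others were not, and Lck and Vim were well expressed. Of 11 monocyte, macrophage and neutrophil markers in the table, Lyz2, S100a8 and S100a9 had 0 counts in all 8 libraries, and the sum was 36.6 to 40.7 CPM in the anti-IgM control libraries and 37.5 to 39.97 CPM in those of the miR-148a line. Of 10 T cell markers only Cd28 had 0 counts in all 8 libraries, and the sum was 248 to 256 CPM against 199 to 226 CPM. Most of it was Lck, at 166 and 173 CPM in the anti-IgM control libraries, and Cd2, Cd8b1 and Zap70 also passed the filter. Of 7 fibroblast markers Col1a2, Col3a1 and Lum were at 0, and Vim, which lymphocytes also express, made up nearly all of the sum of 356 to 409 CPM against 483 to 517 CPM. Of 7 erythroid markers, Hba-a2, Hbb-bs and Hbb-bt were at 0, and the sum was at most 2.86 CPM. Among those tested, Itgam, Fcgr1, Zap70, Epor and Alas2 had response differences of 0.67, 0.41, -0.75, 0.52 and 0.31, and none passed. Vim was at 0.35. In bulk RNA fewer cells of a type and less RNA per cell cannot be told apart, and the part of these markers in the response differences was not tested.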

How the data were processed

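PolyA-selected RNA of 8 libraries was sequenced by the submitters from directional libraries, per the labels' protocols. The authors deposited 1 table of estimated counts (expected counts, not normalised) per gene symbol; the submitters' processing notes name edgeR, Partek 6.15.0730, Bowtie2, TopHat2 2.0.13, cutadapt and CASAVA 1.8 and the builds GRCm38 and mm10, without roles or order. Annotation and strand setting were not stated in the sources used here. Of 24081 rows, 27 with names turned into dates (0.213% to 0.235% of counts) were left out. Between 9.12% and 12.4% of values were not whole, and all were rounded.

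Counts were fitted with edgeR 4.0.16 (R 4.3.3; filterByExpr by group, TMM, legacy quasi-likelihood F test, 4 group means plus the run; 3 residual degrees of freedom; Benjamini-Hochberg over 11291 genes, threshold 0.05). DESeq2 1.42.0 and limma 3.58.1 served as alternatives. The replicate number is the run: same-numbered libraries deviated together in 6 of 6 pairs of groups (Pearson's r 0.495 to 0.569), so the numbers pair the libraries. Replicates differed beyond sampling noise (chi-square per gene 9.305 to 13.3). CPM uses TMM factors; ± is a standard error; run values are differences of log2 CPM with a prior count of 2. At these depths 3 counts were 0.166 to 0.502 CPM, which covers counting error only. The biological coefficient of variation was 5.98%.

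The lists, members and rules were chosen with earlier results of these data known. Named genes were up to 15 called genes per direction whose runs shared a sign (mean log2 CPM 1 or more), filled to 10 by lowest p, then up to 4 called or 2 uncalled members per list with the lowest p, Bcl2l11, Gadd45a and Myc, without unnamed predicted genes. Other list members were named after their values were seen. Some genes that the rule takes are not reported here. The fit was tested on simulated data.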

Additional observations from a re-analysis of the deposited data

Results flagged for a closer look

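The 11 genes below are given because the test of the difference between the lines in the response to anti-IgM itself passed (edgeR, interaction term with the replicate block). Lower responses in the miR-148a line were found for Pdgfb (-1.495 on the log2 scale), Ccnb1ip1 (-0.92), Tfrc (-0.89) and Slc4a7 (-0.82). Higher responses were found for Ckm (0.63), Cnp (0.66), Ceacam1 (0.72), Lsp1 (0.74), Cyth4 (0.79) and Klhl6 (0.89). The value of 1700088E04Rik (7.72) is a fitted value of a gene with 0 counts in both unstimulated miR-148a libraries and is no bound. The groups hold 2 libraries each, too few to look for a library that stands apart within a group.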

How the results depend on the processing

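Across 15 alternatives the count of 11 called response differences (7 higher, 4 lower) stayed within 1.5 times in 3. Without the replicate block it was 0 (0 higher, 0 lower), with 1925 responses called in the control line, 3238 in the miR-148a line, 55 line differences without stimulation and 284 with anti-IgM. DESeq2 with the block called 42 (31 higher, 11 lower), with 418 and 1020 line differences without and with anti-IgM. With no filter on low counts 348 were called (241 higher, 107 lower), with 1284 line differences without stimulation. Thinned to the smallest library 7 were called (4 higher), with 390 and 1005 line differences, and the response differences of Fos (0.36), Itgam (-0.52), Fcgr1 (-0.32) and Alas2 (-0.11) changed sign. Leaving out single libraries gave 0 to 374 called (0 to 164 higher, 0 to 210 lower), 2083 to 4426 and 3295 to 5236 responses in the control and miR-148a lines, and 94 to 1185 and 430 to 2143 line differences without and with anti-IgM. Sign changes on leaving out 1 library occurred for Lck (range -0.020 to 0.30), Myc (-1.06 to 0.22) and Alas2 (-0.36 to 0.68). The cause was not tested. The newer quasi-likelihood method of edgeR, an alternative chosen after seeing the data, called 12 genes. Of 162 tested values of the 11 called genes under these alternatives, 102 remained called, 60 did not, and 0 changed sign. With 1 library left out, the lone library of a group is assumed to vary like the other groups. The depth of the 2 shallowest libraries limits genes of a few CPM.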
